A study of Arabidopsis thaliana with 4 samples.

Results

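The 39 genes described here are nuclear genes of Arabidopsis thaliana that encode proteins of the plastid ribosome. They were chosen by locus from the known protein set of that ribosome, by a rule that uses no measured value although earlier results of these data were known, and all 39 were among the 31346 genes of the deposited table. The small (30S) subunit is represented by 13 genes, 4 of them for plastid-specific ribosomal proteins (PSRPs), and the large (50S) subunit by 26 genes, 2 of them for PSRPs. The deposited annotation of 37 of the 39 contained the word ribosomal. The exceptions were PSRP2, annotated by its RNA-binding motifs, and RPL24, annotated as an SH3-like translation protein. All 39 passed the filter on low counts and were tested, and their counts lay between 2755 and 14184 per library.

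RNA was measured in whole seedlings 6 d old, from a line that overexpresses CLPD constitutively (ClpD-OE, line #5, 2 libraries) and from wild type (WT, 2 libraries). CLPD encodes a chaperone of the chloroplast stroma that works with the Clp protease, and the series asks how gene expression differs where its precursor protein accumulates. Only 1 overexpressing line was sequenced, so effects of the transgene and of anything else particular to line #5 are mixed. The sources do not name the promoter that drives it. The labels number the replicates but do not say that they came from separate cultures, so p-values measure the spread between these libraries, which may be technical. ClpD-OE libraries held 23294451 and 22764333 counts and WT libraries 20800842 and 21896988. CLPD itself was at 1669 and 1870.4 normalized CPM (counts scaled to the TMM-adjusted size of the library) in ClpD-OE and 151 and 147 CPM in WT, an 11.9-fold difference (edgeR quasi-likelihood test, Benjamini-Hochberg adjusted p = 0.00283). In whole seedlings, fewer cells of a type and less RNA per cell cannot be told apart. The 4 shoot markers summed to 33615 and 33743 CPM in ClpD-OE and 51470.3 and 47889.7 CPM in WT, and all 4 were called lower in ClpD-OE. The 8 root markers summed to 1258 and 1292 CPM in ClpD-OE and 1224 and 1341 CPM in WT, nearly all of it from PYK10, while MRN1, COBL9 and EXPA7 had at most 4 counts in any library. Of the 5 root markers tested, only THAS1 was called, from 40 and 67 counts in ClpD-OE and 3 and 8 in WT (edgeR adjusted p = 0.0401). Its log2 fold change, ClpD-OE over WT, was 2.93, and 2.5 without WT replicate 1, where it did not pass. CASP1 was at 1.17, while NRT2.1, ADF8 and PYK10 were at -0.88, -0.2 and -0.012. The 5 seed storage genes summed to at most 1.01 CPM in any library, with CRU2 and CRU3 at 0, and the 10 cell division genes to 252 and 242 CPM in ClpD-OE and 236 and 257 CPM in WT. The part of these markers in the results on ribosomal proteins was not tested.

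Plastids carry a ribosome of the bacterial type, made of a 30S and a 50S subunit. Its ribosomal RNAs and a part of its proteins are encoded in the plastid genome, and the remaining proteins are encoded in the nucleus, made in the cytosol as precursors with a transit peptide and imported. It translates the plastid-encoded subunits of the photosystems, the cytochrome complex, the ATP synthase and the large subunit of Rubisco, and loss of many of its nuclear-encoded proteins stops embryo development in Arabidopsis. Among the 39 genes, 8 carry in the deposited annotation an EMB symbol, the name given to embryo-defective loci, among them RPS13, RPL1, RPL6, RPL10, RPL13, RPL18 and RPL31.

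Transcripts of the plastid ribosomal proteins were at nearly the same normalized level in ClpD-OE and WT. None of the 39 genes passed the test in either direction, 0 of 13 for the 30S subunit and 0 of 26 for the 50S subunit, in a comparison where 8.19% of all 18940 tested genes were called at an adjusted p under 0.05 (4.29% higher and 3.91% lower). The smallest absolute log2 fold change called among all tested genes was 0.36, and of the 39 only PSRP1, at 0.42, lay above it. The absence of calls therefore does not by itself show equal levels. The smallest adjusted p (edgeR) was 0.0822, for RPL27, and 0.226 among the 30S genes, for RPS10. At an unadjusted p under 0.05 there were 3 members, RPL27 and PSRP6 lower and RPL19-2 higher in ClpD-OE, against 28.2% of all tested genes. DESeq2 called 0 of the 39, with a smallest adjusted p of 0.147, and 11% of the genes it tested. In the authors' deposited table the smallest false discovery rate of a member was 0.172. There 6.55% of all 31346 listed genes, 8151 of them with no count, were under 0.05. Among the 18940 genes tested here, 2046 were under 0.05 in the authors' values.

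The log2 fold changes of ClpD-OE over WT had a median of 0.087 for the 30S genes and 0.061 for the 50S genes, beside 0.0011 for all tested genes. They ran from -0.12 to 0.42 in the 30S set and from -0.28 to 0.33 in the 50S set. Their SD across genes was 0.14 and 0.13, beside 0.66 across all tested genes, whose middle quartiles ran from -0.24 to 0.23. All tested genes were at lower levels, with a median FPKM of 8.76 beside 292 and 365 in the 2 sets. They were also measured less precisely, with a median SE of 0.148 beside 0.0868 and 0.0826. Of the lists described below, cell division genes had an SD of 0.14, photosystem genes 0.16, translation factors 0.24, polymerase-associated genes 0.34 and biogenesis genes 0.39. The part of expression level in the narrow spread was not tested. The 95% interval of the fold change lay within 1.5-fold in either direction for 38 of the 39 genes, the exception being PSRP1, and for 43.5% of all tested genes. Taken gene by gene, the intervals of these 38 thus bound the difference at under 1.5-fold on this scale, and that of PSRP1 does not. They are not joint over the genes and rest on the spread between these libraries. The interval included 0 for 36 of the 39, all but RPL27, PSRP6 and RPL19-2. The 6 PSRP genes had a median of 0.07 and the other 33 genes one of 0.06. The 8 genes with an EMB symbol lay between -0.12 and 0.19, with a median of 0.11.

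**Figure D1:**
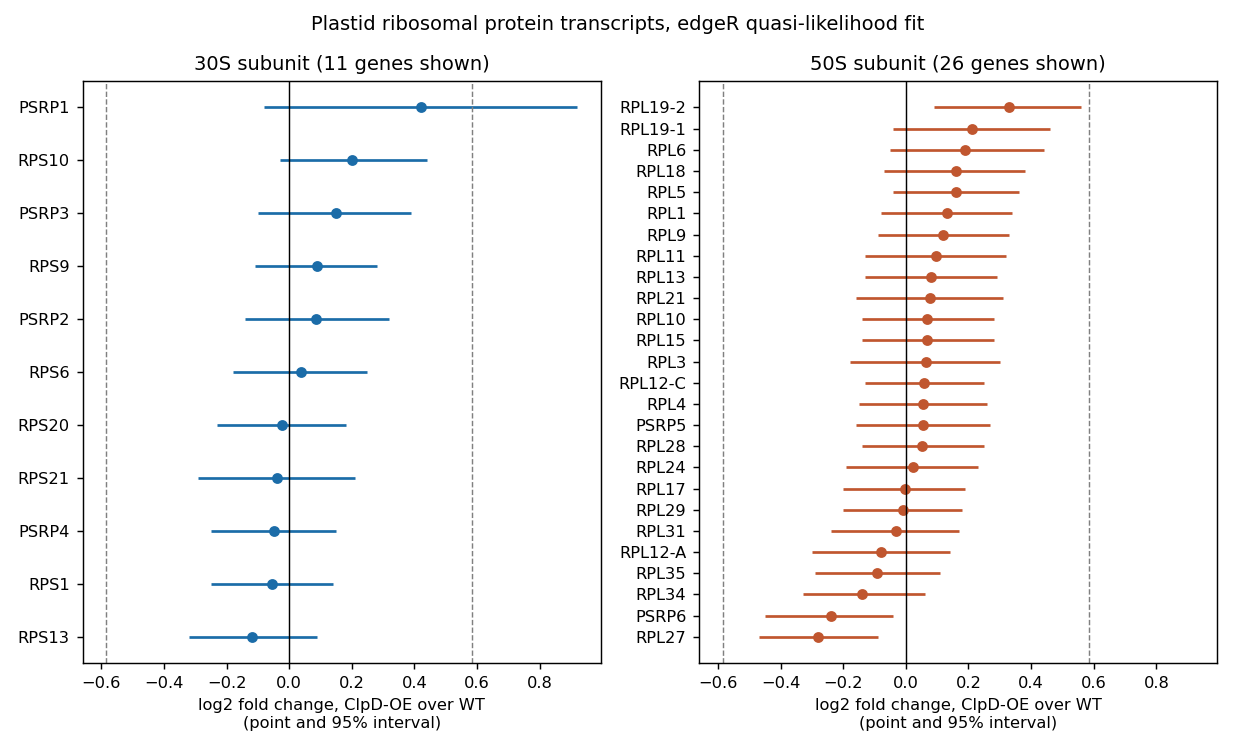
Log2 fold change of each gene, ClpD-OE over WT, with its 95% interval from the edgeR quasi-likelihood fit, for 11 genes of the 30S subunit (left) and the 26 of the 50S subunit (right), ordered by fold change. The dashed lines mark 1.5-fold in either direction. Only the interval of PSRP1 crosses a dashed line, and those of RPL27, PSRP6 and RPL19-2 leave out 0.

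The size of these small differences, and their direction in some of the genes, depended on the scaling. The values above use TMM scaling, which sets the bulk of genes equal between libraries. With library totals instead, the median of all tested genes moved to 0.23 and that of the 39 members to 0.29, so that the members stood about as far above the other genes as before. There 37 members had a positive value and 2 a negative one (RPL27 and PSRP6), against 26 positive and 13 negative with TMM. RPS1, RPS13, PSRP4, RPL12-A and RPL17 were among the members that changed sign with library totals. On that scale 4 members were called higher, among them RPS10, RPL5 and RPL19-2 at log2 fold changes of 0.43, 0.39 and 0.55 (edgeR adjusted p = 0.048, 0.0416 and 0.0306), where 14.3% of all tested genes were called higher. The authors' FPKM values, which are also scaled to library totals, gave log2 ratios from -0.06 to 0.64 in the authors' deposited table, 37 positive and 2 negative, with a median of 0.29.

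The WT libraries differed from each other over nearly the whole set. WT replicate 2 was above WT replicate 1 in 38 of the 39 genes, all but PSRP6, beside 49.6% of all tested genes, by a median of 0.13 on the log2 scale. In ClpD-OE, replicate 2 was above replicate 1 in 31 of 39, by a median of 0.026. The median log2 fold change of the 39 genes was accordingly 0.0024 without WT replicate 1 and 0.13 without WT replicate 2, so that the WT libraries moved it by more than its value of 0.063 with all libraries. In normalized CPM both ClpD-OE libraries were above both WT libraries in 17 of the 39 genes (30.5% of all tested genes), below both in 6 (29.4%), and overlapped with them in 16.

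**Figure D2:**
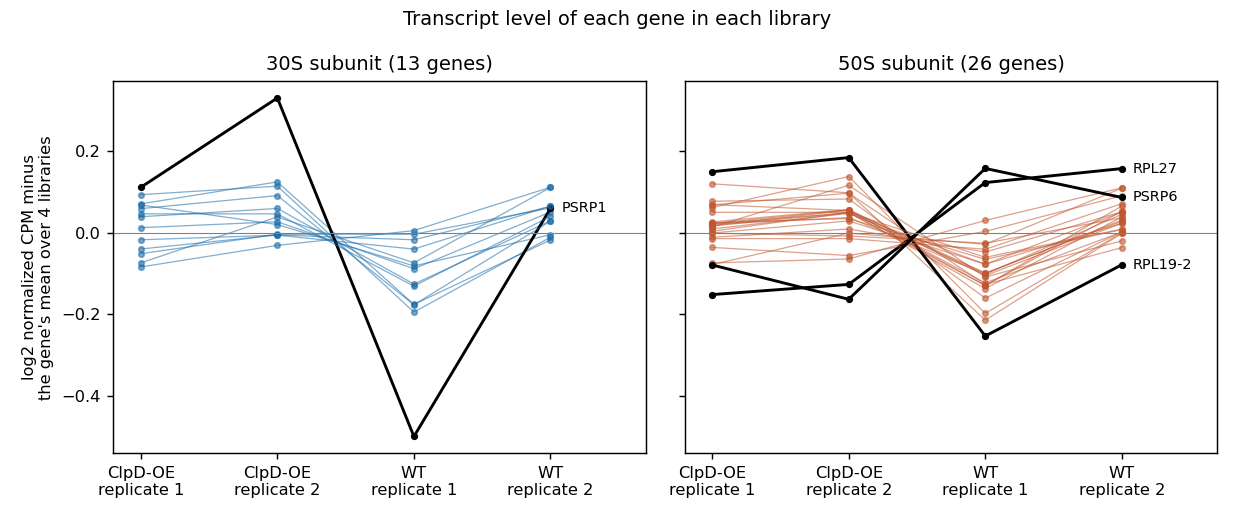
Normalized CPM of each gene in each library, as log2 minus the gene's mean over the 4 libraries, for the 30S genes (left) and the 50S genes (right), with a line joining the values of 1 gene. PSRP1, RPL27, PSRP6 and RPL19-2 are drawn in black. Most lines dip at WT replicate 1 and come back at WT replicate 2 to about the ClpD-OE level, and RPL27 and PSRP6 are highest in the WT libraries.

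Among the 30S genes with bacterial counterparts, RPS1 (AT5G30510, chromosome 5) encodes the protein that in bacteria brings messenger RNA to the ribosome, and its loss in Arabidopsis is known to weaken heat induction of the heat shock factor HSFA2. It was at 447 and 462 CPM in ClpD-OE and 462 and 483 CPM in WT. ClpD-OE replicate 2 lay just below WT replicate 1, by less than the rounding of these values, and the log2 fold change was -0.055 (SE 0.0759, 95% interval -0.25 to 0.14, adjusted p = 0.682). The 250 bases before its annotated start (TAIR10.1, chr5:11621299-11621548, minus strand) are shown because an element of plastid ribosomal protein genes, the S1F box, was described in the RPS1 promoter of spinach. Capitals mark an S1F box (ATGGTA) on the opposite strand, 24 bases before the start, and an I-box (GATAAG), a light-response element, also on the opposite strand, 7 bases before the start.
RPS1 promoter: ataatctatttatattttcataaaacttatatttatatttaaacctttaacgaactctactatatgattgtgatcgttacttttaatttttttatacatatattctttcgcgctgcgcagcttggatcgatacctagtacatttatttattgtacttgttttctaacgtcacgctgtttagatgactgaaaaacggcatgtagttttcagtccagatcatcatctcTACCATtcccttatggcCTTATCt

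RPS10 (AT3G13120, chromosome 3), a protein of the subunit's head, was at 344 and 349 CPM in ClpD-OE and 282 and 320.1 CPM in WT. Both ClpD-OE libraries were above both WT libraries, by a log2 fold change of 0.20 that did not pass the test (edgeR adjusted p = 0.226). RPS13 (AT5G14320, chromosome 5), which in bacteria contacts the 50S subunit and the transfer RNAs, was lower instead, at 457 and 474 CPM in ClpD-OE and 486 and 523 CPM in WT (log2 fold change -0.12, edgeR adjusted p = 0.402). RPS6, RPS9, RPS20 and RPS21 had log2 fold changes between -0.04 and 0.09 (adjusted p from 0.516 to 0.875).

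Of the plastid-specific proteins of the 30S subunit, PSRP1 (AT5G24490, chromosome 5) varied most. It is related to the bacterial factors that hold ribosomes in an inactive, hibernating state. Its level was 343 and 399 CPM in ClpD-OE and 225 and 331 CPM in WT. WT replicate 1 stood far below the other 3 libraries, and WT replicate 2 was just under ClpD-OE replicate 1. The log2 fold change was 0.42 (SE 0.197, 95% interval -0.08 to 0.92, edgeR adjusted p = 0.241), while the WT replicates alone differed by 0.56 and the ClpD-OE replicates by 0.22. Without WT replicate 1 it was 0.16 (adjusted p = 0.516). Without WT replicate 2 it was 0.72 and was called higher (adjusted p = 0.0285, where 6.07% of tested genes were called higher). DESeq2 without WT replicate 2 called it too, at 0.71 (adjusted p = 0.0076, where 3.33% of tested genes were called higher). With the replicate number as a block it was also called, at 0.44 (edgeR adjusted p = 0.0345, where 8.6% of tested genes were called higher). Its promoter window (TAIR10.1, chr5:8365351-8365600, plus strand) is shown as that of the 30S gene with the widest spread, and capitals mark its pair of I-boxes, both read on the opposite strand, 27 and 11 bases before the start.
PSRP1 promoter: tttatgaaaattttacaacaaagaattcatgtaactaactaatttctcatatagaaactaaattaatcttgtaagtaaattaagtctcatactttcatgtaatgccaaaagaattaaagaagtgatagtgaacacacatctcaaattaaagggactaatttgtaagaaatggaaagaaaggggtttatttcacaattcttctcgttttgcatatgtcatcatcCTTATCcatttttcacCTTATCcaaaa

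PSRP2 (AT3G52150, chromosome 3), a protein with RNA recognition motifs, was at 243 and 243 CPM in ClpD-OE and 215 and 242 CPM in WT. PSRP3 (AT1G68590, chromosome 1), which has counterparts in cyanobacteria, was at 333 and 340.4 CPM in ClpD-OE and 283 and 326 CPM in WT (log2 fold change 0.15, edgeR adjusted p = 0.388). In both genes WT replicate 1 was the lowest library and WT replicate 2 came close to the ClpD-OE libraries. A related locus outside the set, PSRP3/2 (AT5G15760), was at 5.74 and 5.85 FPKM in ClpD-OE and 4.78 and 5.17 FPKM in WT, against 394 and 401 FPKM in ClpD-OE and 278 and 333 FPKM in WT for PSRP3. PSRP4 (AT2G38140, chromosome 2), related to the small bacterial protein Thx, was at 254 and 260.1 CPM in ClpD-OE and 258 and 273 CPM in WT, and the groups overlapped (log2 fold change -0.049, edgeR adjusted p = 0.727). Its promoter window (TAIR10.1, chr2:15980598-15980847, plus strand) is shown because it alone of the 39 held 4 of the 6 elements searched. Capitals mark, from left to right, an I-box, a G-box (CACGTG), a telo box (AAACCCTA, here on the opposite strand) and 3 site II elements (TGGGCC or TGGGCT, either strand).
PSRP4 promoter: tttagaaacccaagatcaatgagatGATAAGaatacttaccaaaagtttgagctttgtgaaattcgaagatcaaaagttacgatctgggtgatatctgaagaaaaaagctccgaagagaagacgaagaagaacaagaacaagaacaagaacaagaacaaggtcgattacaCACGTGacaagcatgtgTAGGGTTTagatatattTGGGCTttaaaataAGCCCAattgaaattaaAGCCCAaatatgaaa

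In the 50S subunit the stalk is built from several copies of RPL12, which recruits the translation factors that use GTP, on a base of RPL10 beside RPL11. RPL12-A (AT3G27830) and RPL12-C (AT3G27850) lie close together on chromosome 3. RPL12-A was at 457 and 482 CPM in ClpD-OE and 473 and 520.1 CPM in WT, and the groups overlapped (log2 fold change -0.081, edgeR adjusted p = 0.594). RPL12-C was at 432 and 435 CPM in ClpD-OE and 406 and 427 CPM in WT (log2 fold change 0.058, adjusted p = 0.661), with ClpD-OE narrowly above WT. Another gene of the family, RPL12-B (AT3G27840), outside the set, had 0 counts in all 4 libraries. In each library the RPL12 pair together gave 983 and 1027 FPKM in ClpD-OE and 819.6 and 919 FPKM in WT, which was 2.60 and 2.65 times the median of the other 24 genes of the subunit in ClpD-OE and 2.77 and 2.79 times in WT. RPL10 and RPL11 had log2 fold changes of 0.069 and 0.095 (edgeR adjusted p = 0.639 and 0.541).

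How reads were shared between RPL12-A and RPL12-C limits the values of each. Their coding sequences, of 576 and 564 bases, matched at 91.5% of alignment positions (gaps counted), with an identical run of 255 bases, so that a read from that run cannot be assigned to either gene by its sequence. The 90-base windows below, from coding position 262 of RPL12-A and 250 of RPL12-C (counted from the first base of the start codon), show where the identical run begins: capitals mark the 3 bases that differ, and the last 30 bases belong to the run.
RPL12-A coding: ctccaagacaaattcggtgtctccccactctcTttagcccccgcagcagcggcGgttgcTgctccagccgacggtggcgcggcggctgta
RPL12-C coding: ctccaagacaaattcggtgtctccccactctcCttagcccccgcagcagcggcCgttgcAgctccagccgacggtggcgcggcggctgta

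The RPL19 genes, for a protein that in bacteria lies at the interface of the subunits, were the pair with the highest fold changes of the 50S set. RPL19-2 (AT4G17560, chromosome 4) was at 206 and 211 CPM in ClpD-OE and 156 and 176 CPM in WT. RPL19-1 (AT5G47190, chromosome 5) was at 199 and 196 CPM in ClpD-OE and 158 and 183 CPM in WT. Both ClpD-OE libraries were above both WT libraries in each gene. RPL19-2 was 1.26-fold higher (log2 fold change 0.33, SE 0.0931, 95% interval 0.09 to 0.56, edgeR adjusted p = 0.0952) and did not pass the test, and RPL19-1 was at 0.21 (adjusted p = 0.234). RPL19-2 was 0.24 without WT replicate 1 (adjusted p = 0.222). It was called higher at 0.42 without WT replicate 2 (adjusted p = 0.0441) and at 0.33 with the replicate number as a block (adjusted p = 0.0459). Summed, the pair gave 405 and 407 CPM in ClpD-OE and 314 and 359 CPM in WT, a ratio of 1.21 for which an exact two-sided permutation test over 4 libraries gave p = 0.33, the smallest it can give.

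The coding sequences of this pair, of 690 and 678 bases, matched at 79.7% of alignment positions (gaps counted), with no identical run over 43 bases. The windows below, from coding position 423 of RPL19-1 and 411 of RPL19-2, are centred on that longest run, with the 6 bases that differ in capitals.
RPL19-1 coding: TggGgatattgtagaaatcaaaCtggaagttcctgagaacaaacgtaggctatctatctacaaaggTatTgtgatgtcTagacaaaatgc
RPL19-2 coding: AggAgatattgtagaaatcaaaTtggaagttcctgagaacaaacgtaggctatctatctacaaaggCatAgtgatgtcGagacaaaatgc
The promoter window of RPL19-2 (TAIR10.1, chr4:9779974-9780223, plus strand) is shown as the one with the most site II elements of the set, 5 in capitals, of which a pair overlaps in the run TGGGCCCA.
RPL19-2 promoter: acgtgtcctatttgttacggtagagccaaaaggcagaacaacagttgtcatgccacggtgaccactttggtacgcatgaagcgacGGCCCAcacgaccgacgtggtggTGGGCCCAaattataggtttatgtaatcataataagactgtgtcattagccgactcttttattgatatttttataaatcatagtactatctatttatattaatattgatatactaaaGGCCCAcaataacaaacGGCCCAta

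RPL27 (AT5G40950, chromosome 5), whose bacterial counterpart reaches the peptidyl transferase centre, was the gene with the smallest p of the 39. It was at 345 and 351 CPM in ClpD-OE and 417 and 427 CPM in WT. The groups stood well apart and the replicates within each lay close together, so that RPL27 was 1.21-fold lower (log2 fold change -0.28, SE 0.0737, 95% interval -0.47 to -0.09), and its adjusted p of 0.0822 (edgeR) missed the threshold. With library totals it was at -0.055 (adjusted p = 0.646). PSRP6 (AT5G17870, chromosome 5), a plastid-specific protein of the 50S subunit, was at 124 and 117 CPM in ClpD-OE and 146 and 139 CPM in WT, also without overlap. It was 1.18-fold lower (log2 fold change -0.24, SE 0.0812, 95% interval -0.45 to -0.04, edgeR adjusted p = 0.130), and at -0.018 with library totals. Per length its 4 libraries were at 216 and 207 FPKM in ClpD-OE and 215 and 213 FPKM in WT. The other plastid-specific protein of this subunit, PSRP5 (AT3G56910, chromosome 3), was at 357 and 361 CPM in ClpD-OE and 328 and 363 CPM in WT (log2 fold change 0.054, edgeR adjusted p = 0.726).

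RPL17 (AT3G54210, chromosome 3), which in bacteria lies near the mouth of the peptide exit tunnel, had the highest level per length of the 50S set. It was at 565 and 573 CPM in ClpD-OE and 551 and 590 CPM in WT, with the ClpD-OE values inside the range of WT (log2 fold change -0.0032). The other 18 genes of the subunit had log2 fold changes between -0.14 and 0.19 and adjusted p from 0.249 to 0.946. They include RPL1 of the mobile stalk that escorts the spent transfer RNA (0.13), RPL4 of the exit tunnel wall (0.055), RPL5 and RPL18, in bacteria the binding partners of the small 5S ribosomal RNA (both 0.16), and RPL24 (0.023), known in Arabidopsis as SVR8.

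Across the 39 promoter windows of 250 bases (RefSeq annotation of TAIR10.1), site II elements, known from promoters of genes for translation and cell growth, were in 14 (35.9%), beside 19.2% of the 27443 windows of protein-coding genes. They were in 8 of 13 30S windows and 6 of 26 50S windows. The I-box was in 10 (25.6%, beside 12.3%), the telo box in 4 (10.3%, beside 4.49%) and the G-box in 3 (7.69%, beside 6.49%). The S1F box was in 3 (7.69%, beside 11%), and the S2F box (CCATACATT) was in 0 of the 39 windows and 0.262% of all. Letters were searched on both strands, and a match is a description of the window. The 14 genes with a site II element had a median log2 fold change of 0.09 (range -0.14 to 0.33) and the 25 without one had 0.05 (range -0.28 to 0.42). This split was made after the fold changes were known and was not tested.

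Per length, on the authors' FPKM scale, the 11 30S genes shown by name spanned a 1.97-fold range of mean levels and the 26 50S genes a 3.71-fold range. Of these 11, PSRP4 was the highest, at 454 ± 12.4 FPKM in ClpD-OE and 402 ± 27.0 FPKM in WT (SD, n = 2 each). PSRP2 was the lowest, at 240 ± 2.51 FPKM in ClpD-OE and 194 ± 21.6 FPKM in WT. In the 50S set RPL17 led with 616 ± 11.7 FPKM in ClpD-OE and 528 ± 40.5 FPKM in WT, ahead of PSRP5 and RPL29, and RPL19-2 closed the order at 183 ± 4.98 FPKM in ClpD-OE and 125 ± 14.4 FPKM in WT. Neighbours in the order could seldom be separated: the upper gene was above the next in every library in 2 of 10 neighbouring pairs of the 30S set and 8 of 25 of the 50S set. In 0 of these pairs were the ranges over the 4 libraries apart. The order of mean levels was much the same in both genotypes, with a Spearman correlation of 0.9 over the 11 30S genes and 0.949 over the 26 50S genes, a description of genes that share the same libraries.

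**Figure D3:**
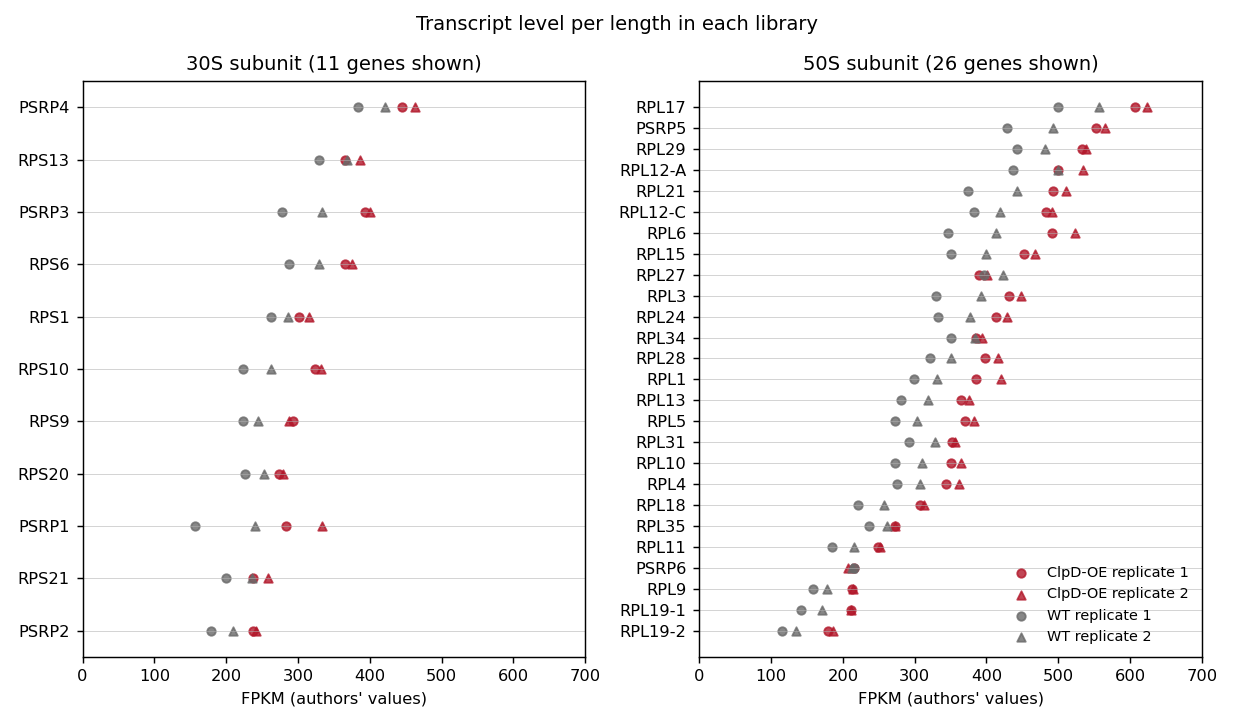
Level per length of each gene in each library, in the authors' FPKM, ordered by the mean of the 4 libraries, for 11 30S genes (left) and the 26 50S genes (right). Circles are replicate 1 and triangles replicate 2, in red for ClpD-OE and grey for WT. WT replicate 1 is the lowest library in nearly every row, and the rows of neighbouring genes mostly overlap.

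The sum over each subunit showed the same dependence on scale. The 13 30S genes took 0.469% and 0.491% of all counts in ClpD-OE and 0.362% and 0.42% in WT, and the 26 50S genes 0.989% and 1.02% in ClpD-OE and 0.785% and 0.886% in WT. In summed FPKM the ratio of ClpD-OE to WT was 1.23 for the 30S genes and 1.19 for the 50S genes. In summed TMM-normalized CPM it was 1.05 and 1.03, with 4363 and 4510.3 CPM in ClpD-OE and 3991 and 4454 CPM in WT for the 30S genes, where ClpD-OE replicate 1 lay below WT replicate 2. For the 50S genes the sums were 9206 and 9386 CPM in ClpD-OE and 8659.6 and 9396 CPM in WT, also overlapping. The balance of the subunits, which does not depend on library scaling, was 2.21 and 2.18 in ClpD-OE and 2.28 and 2.22 in WT, as summed 50S over summed 30S FPKM. The ratio of the group means was 0.974, and the groups were apart only by 2.21 against 2.22. That ratio was 0.987 without WT replicate 1 and 0.96 without WT replicate 2. With 2 libraries a group the exact two-sided permutation test cannot go below p = 0.33.

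Genes that work with the plastid ribosome were read from lists, beside the 39 ribosomal proteins. Of 13 plastid translation factor genes, 1 was called higher and 0 lower, with a median log2 fold change of 0.085. The gene called was the initiation factor IF3 gene SVR9, 1.34-fold higher (edgeR adjusted p = 0.0491, and 0.132 without WT replicate 1), and the release factor gene APG3 was next at a log2 fold change of 0.37 (adjusted p = 0.0536). Of 16 genes for plastid ribosome biogenesis and ribosomal RNA processing, 10 were called higher and 0 lower, with a median of 0.48. RH22, an RNA helicase of 50S assembly, was at 55.6 and 55.5 CPM in ClpD-OE and 27.3 and 27.8 CPM in WT, 2.02-fold higher (edgeR adjusted p = 0.0188). RAP, which acts in maturation of the 30S ribosomal RNA, was 1.92-fold higher (adjusted p = 0.0218), and RH39, a helicase of 50S ribosomal RNA processing, 1.84-fold (adjusted p = 0.0242). Without WT replicate 1 the median of the 16 genes was 0.41, and without WT replicate 2 it was 0.57. Fewer of the 16 were called without WT replicate 1 than with all libraries. The summed level of the biogenesis genes was 13.9% and 13.6% of that of the 39 ribosomal protein genes in ClpD-OE and 10.2% and 10.3% in WT, a ratio within each library that TMM scaling does not touch.

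Of 12 genes for proteins associated with the plastid-encoded RNA polymerase, which transcribes plastid genes, 5 were called higher and 0 lower. Their median was 0.49 with all libraries, 0.38 without WT replicate 1 and 0.67 without WT replicate 2. Leaving out WT replicate 1 also lowered the number of these genes called. FLN1 (PAP6), HMR (PAP5) and PTAC10 (PAP3) were higher by log2 fold changes of 1.22, 0.95 and 1.14 (edgeR adjusted p = 0.0188, 0.0242 and 0.0312). Of 26 nuclear genes for photosystem core and electron transport subunits, the partners of plastid-translated proteins, 25 were called lower and 0 higher, with a median of -0.73. The photosystem I subunit genes PSAD2, PSAN and PSAK were 2.03-fold, 1.84-fold and 1.84-fold lower (edgeR adjusted p = 0.0188 for each). Without either of the ClpD-OE libraries edgeR called 0 genes of any list, since it then called 0 of all genes tested. The 39 ribosomal protein genes summed to 35.1% and 35.6% of the photosystem genes' CPM in ClpD-OE and 19.2% and 21.9% in WT. Of 312 other tested genes annotated as ribosomal proteins, mostly cytosolic, 19 were called higher and 1 lower, with a median of 0.20. With library totals 192 of them were called higher and 1 lower (median 0.43), where 14.3% of all tested genes were called higher. Their median was 0.22 without WT replicate 1 and 0.20 without WT replicate 2, but far fewer of them were called higher without WT replicate 1. Of 8 tested genes annotated as mitochondrial ribosomal proteins, edgeR and DESeq2 called 0, and 1 was at an unadjusted p under 0.05. Of 2 further genes annotated as chloroplast ribosomal proteins, edgeR called 0 (smallest adjusted p = 0.0613) and DESeq2 called 1 (adjusted p = 0.0433). Cell division genes had 0 of 10 called (edgeR and DESeq2, and 0 at an unadjusted p under 0.05), with a median of 0.082.

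**Figure D4:**
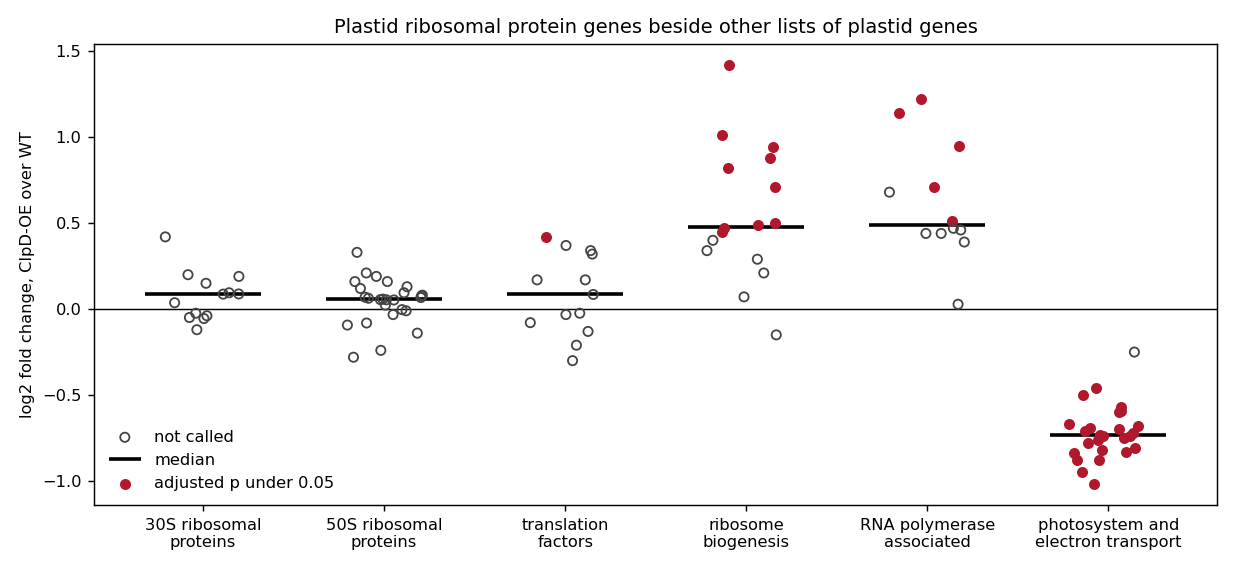
Log2 fold change, ClpD-OE over WT, of each tested gene in the 30S and 50S ribosomal protein sets and in 4 other lists of plastid genes, with the median as a bar. Filled red points passed at an adjusted p under 0.05 (edgeR). The ribosomal proteins hold no filled point and lie around 0, the biogenesis and RNA polymerase lists have medians of 0.48 and 0.49, and the photosystem list one of -0.73.

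A few members share sequence or position with other genes. Of the 39, 16 overlap another annotated gene, and whether reads were counted by strand is not stated. In 3 of them the whole count of the overlapping gene reached at least 10% of the member's mean count. It was 19.2% for RPS6, 17.5% for RPL1 and 25.2% for RPL5. The longest overlap with any gene was 36, 303 and 29 bases in that order. How many reads fell in the overlaps is not known, so these values may include some of them.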

How the data were processed

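Oligo(dT)-selected RNA of whole seedlings was sequenced on an Illumina HiSeq instrument, per the labels' protocols. The submitters' processing notes name the aligners HISAT2 and Bowtie2 2.2.8, the read trimmer fastp 0.18.0, RSEM, StringTie 1.3.1, DESeq2 and the build TAIR10, without order. The authors deposited 1 table whose counts, whole numbers that are not normalized, were taken as estimated counts because RSEM is named, and rounding changed none. The FPKM values in that table are the authors', per the file headers, and were used for levels per length. The log2 fold change and the p-value with its FDR in the deposited table are the authors', made by a test that the file headers do not name.

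The test was that of edgeR 4.0.16, run in R 4.3.3 (TMM, filterByExpr by group, glmQLFit and glmQLFTest with genotype as the only term), over 18940 genes with Benjamini-Hochberg adjustment at 0.05. TMM factors were 1.07 and 1.09 for ClpD-OE and 0.907 and 0.943 for WT. The 95% intervals used the fit's SE and degrees of freedom (median 5.27). The test was also tried on simulated data, with changed genes drawn from all levels. Means, library sizes and the trend of spread with level were taken from the fit of these data. Spread particular to single genes was not simulated. The test recovered 17.4% of 1.5-fold, 71.7% of 2-fold and 98.4% of 4-fold changes. Counts of at least 2755 per library make counting error small beside the spread of the libraries, which at n = 2 limits precision. Replicates differed by more than sampling noise, with a chi-square per degree of freedom of 10.2 in ClpD-OE and 18.6 in WT. Alternatives were other scalings, filters, DESeq2 1.42.0, a newer quasi-likelihood fit, a replicate block and each library left out.

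The members, lists and tests were chosen with earlier results of these data known. Values per library were to be given for RPS1, the PSRP, RPL12 and RPL19 genes, and the members with the extreme FPKM, p or fold change of each subunit, and from other lists for up to 3 called genes with the smallest p. RPL1, RPL4, RPL5, RPL10, RPL11, RPL18 and RPL24 were named for their roles after their values were seen. Some members enter the counts, sums and medians but are not reported here by name. Promoter and coding sequences come from the RefSeq assembly TAIR10.1 and its annotation, read by locus, with coding sequences aligned pairwise.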

Additional observations from a re-analysis of the deposited data

How the results depend on the processing

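With 2 libraries a group, precision was limited by the spread of the libraries, and the choice of WT library moved the members' median by more than the median itself. Over all genes, 1552 were called, 3276 with library totals and between 0 and 2781 with 1 library left out. That count was 0 without either ClpD-OE library (DESeq2 called 555 without replicate 1 and 346 without replicate 2), 524 without WT replicate 1 (DESeq2 534) and 2781 without WT replicate 2. DESeq2 with a library left out was chosen after seeing the data. The counts of members called, 0 and 0, became 2 of the 30S and 2 of the 50S genes with library totals. They were between 0 and 1 in each subunit with 1 library left out (1 and 1 without WT replicate 2), and DESeq2 without WT replicate 2 called 1, PSRP1. With library totals the median log2 fold change was 0.31 for the 30S genes and 0.28 for the 50S genes. The summed level of ClpD-OE over WT, 1.23 and 1.19 in FPKM, was 1.05 and 1.03 in TMM-normalized CPM.

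Of 17 members followed through these settings, 6 changed sign somewhere. With library totals RPS1 was at 0.17, RPS13 at 0.11, PSRP4 at 0.18, RPL12-A at 0.14 and RPL17 at 0.22. With 1 library left out RPL17 lay between -0.054 and 0.047 (0.007 without ClpD-OE replicate 1, 0.047 without WT replicate 2) and PSRP5 between -0.019 (without WT replicate 1) and 0.13. The cause was not tested, apart from the shift of 0.23 that library totals give to the median of all genes. DESeq2 size factors, both filters, DESeq2 on all libraries and the newer fit changed no sign and no call among these 17.

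The labels do not say that replicate numbers pair the libraries, and with 2 numbers the data cannot show it: deviations of same-numbered libraries correlated at 0.256 over genes. With the replicate block 3513 genes were called, and 1 30S gene (PSRP1) and 1 50S gene (RPL19-2) among the members.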
